A study of Mus musculus with 9 samples.

Results

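Myc, Klf2, Klf4, Klf6, Klf10, Ier2, Ier3, Ier5, Btg2 and Srf are immediate early genes, and they were followed here in bone marrow-derived mast cells (BMMCs) with and without antigen stimulation and luteolin. They were chosen by name, as transcription regulators and growth regulators of this class outside the AP-1, EGR and NR4A families, and make up 10 of the 47643 genes in the count table. The cells were grown from the bone marrow of C57BL/6 mice in WEHI-3-conditioned medium, which supplies the growth factors that mast cells need, over several weeks. Polyadenylated RNA was sequenced in 3 groups of 3 libraries, namely Control (untreated), IgE+BSA (given IgE against the hapten DNP and then DNP coupled to BSA as antigen), and cells given IgE, this antigen and the plant flavone luteolin (IgE+BSA+Luteolin). The labels give luteolin as 10 μM for 24 h, in a text that is the same for all 9 samples, Control included. They state neither how long cells were stimulated before harvest, nor the order of luteolin and antigen, which the study's own text gives as luteolin first in one place and second in another, nor the age or sex of the mice, nor whether libraries of a group came from separate cultures. Where they did not, the p-values measure only the spread between these samples, which may be technical.

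Immediate early genes are transcribed from factors already present in a resting cell, without the need for new protein synthesis, and most of their mRNAs are short-lived. In mast cells the trigger is antigen that crosslinks IgE on the high-affinity receptor FcεRI, which starts the Lyn and Syk kinases and, below them, MAP kinase, calcium and NF-kB signalling. SRF sits close to the top of this response, since it binds CArG boxes in the promoters of many immediate early genes together with ELK-type cofactors or the actin-sensing MRTF cofactors. MYC drives growth and ribosome production as a dimer with MAX. KLF factors bind GC-rich promoter elements, BTG2 slows proliferation and brings the CCR4-NOT deadenylase to mRNAs, and of the IER proteins IER2 and IER5 are related in sequence while IER3 is not.

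In these libraries all 10 genes were lower in IgE+BSA+Luteolin than in IgE+BSA, with changes from -1.08 (Myc) to -3.59 (Klf4) on the log2 scale, where 21.9% of all genes tested were called lower and 18.1% higher. Stimulation alone moved fewer of them past the threshold, since Ier3, Ier5 and Btg2 were higher in IgE+BSA than in Control and the other 7 did not pass the test, where 2.25% of all genes were called higher and 1.02% lower. The call of Ier3 was lost when any single library other than Control replicate 1 was left out. Against Control, 6 of the 10 were lower in IgE+BSA+Luteolin, where 2.75% of all genes tested were called lower, but at most 1 of the 10 was called once any single luteolin library was left out. Both comparisons with Control also changed with the Control libraries used, as given for each gene.

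The promoters of 4 of the genes are shown because they carry the recognition sequences of factors named above, CArG boxes among them. RefSeq promoter sequences of the build GRCm38.p6 matched 7 of the 10 genes, and Myc, Klf10 and Ier2 were not among them. Each line gives the 250 bases before the RefSeq start in the direction of transcription, so that its last base is position -1, and capitals mark the motifs found. Srf lies on the minus strand of chromosome 17 (chr17:46556163-46556412), Btg2 on the minus strand of chromosome 1 (chr1:134079156-134079405), Ier3 on the plus strand of chromosome 17 (chr17:35821463-35821712) and Klf4 on the minus strand of chromosome 4 (chr4:55532476-55532725). The GENCODE gene models of Ier3 and Srf begin further upstream, so that the last 29 and 13 bases of those windows fall inside the annotated genes.
Srf: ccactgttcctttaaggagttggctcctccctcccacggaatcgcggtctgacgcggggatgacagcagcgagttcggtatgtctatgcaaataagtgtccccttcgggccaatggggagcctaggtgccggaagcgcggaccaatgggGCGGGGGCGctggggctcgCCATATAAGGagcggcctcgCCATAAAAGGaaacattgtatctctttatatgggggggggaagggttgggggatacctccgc
Btg2: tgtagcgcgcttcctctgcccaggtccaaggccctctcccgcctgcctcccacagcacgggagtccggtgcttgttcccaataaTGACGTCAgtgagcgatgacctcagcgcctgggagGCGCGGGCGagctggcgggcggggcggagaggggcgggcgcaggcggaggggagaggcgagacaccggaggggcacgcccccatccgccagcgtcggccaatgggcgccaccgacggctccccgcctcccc
Ier3: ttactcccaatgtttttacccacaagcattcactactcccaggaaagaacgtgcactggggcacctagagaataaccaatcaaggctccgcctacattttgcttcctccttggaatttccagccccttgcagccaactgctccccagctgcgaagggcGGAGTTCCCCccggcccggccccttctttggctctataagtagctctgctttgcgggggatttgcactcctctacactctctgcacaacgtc
Klf4: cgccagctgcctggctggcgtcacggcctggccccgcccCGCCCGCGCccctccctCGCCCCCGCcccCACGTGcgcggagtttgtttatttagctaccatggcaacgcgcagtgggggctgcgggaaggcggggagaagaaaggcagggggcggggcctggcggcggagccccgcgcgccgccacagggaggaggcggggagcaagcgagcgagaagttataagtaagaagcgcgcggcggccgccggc

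The Srf promoter held 2 CArG boxes (CC, then 6 letters that are each A or T, then GG), CCATATAAGG at positions -82 to -73 and CCATAAAAGG at -62 to -53, and an EGR site (GCGNGGGCG) at -101. A CArG box was present in 1.63% of the 32851 promoters of the same length in the table, searched on both strands from 250 bases before to 50 after the start. In the Btg2 promoter a cAMP response element, TGACGTCA, lay at -166, a motif found in 1.79% of promoters, and an EGR site lay at -131. The NF-kB site of the Ier3 promoter, on the minus strand at -92, belongs to a motif present in 8.46% of promoters. Klf4 had 2 EGR sites on the minus strand, at -211 and -194, and an E-box (CACGTG, the core bound by MYC and MAX) at -182. Klf2 also had an EGR site, at -199, and Klf6 an E-box at -43. EGR sites were thus in 4 of the 7 promoters against 5.55% of all promoters, and E-boxes in 2 of the 7 against 7.15%. None of the 7 held an AP-1 site (TGANTCA, 7.81% of promoters) or the forward TATA box TATAAA (8.32%), and the window of Ier5 held none of the motifs searched. The GC content of these windows ranged from 54.4% (Ier3) to 74.0% (Klf4), and the median of all promoters was 52.4%. No motif in these windows overlapped another. CRE and E-box read the same on both strands. These matches are a description, with no test.

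The genes also shared a compact structure. Their genomic spans ran from 1.24 kb (Ier3) to 9.24 kb (Klf10), with a median of 4.46 kb, against a median of 24.2 kb over the 10825 protein-coding genes tested. All 10 spanned under 10 kb, as did 23.4% of the protein-coding genes tested. The annotated main transcripts held a median of 3 exons against 9, and those of Ier2 and Ier5 consist of 1 exon. AUUUA, the core of the AU-rich elements that speed mRNA decay, occurred at least once in the 3′ UTR of 9 of the 10, with 7 copies in Klf6, 5 in Ier3, 5 in Btg2 and none in Ier2. The share of genes tested with at least 1 copy was 68.9%, and 3 or more copies were found in 4 of the 10 genes against 37.2%.

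Each gene lies in an annotated protein-coding locus of GRCm38. Myc (ENSMUSG00000022346) and Klf10 (ENSMUSG00000037465) lie on chromosome 15, Klf2 (ENSMUSG00000055148) and Ier2 (ENSMUSG00000053560) on chromosome 8, Ier3 (ENSMUSG00000003541) and Srf (ENSMUSG00000015605) on chromosome 17, and Ier5 (ENSMUSG00000056708) and Btg2 (ENSMUSG00000020423) on chromosome 1. Klf4 (ENSMUSG00000003032) is on chromosome 4 and Klf6 (ENSMUSG00000000078) on chromosome 13. Only Srf overlaps other annotated genes, a long non-coding RNA on the opposite strand and a microRNA, both with 0 counts in all 9 libraries.

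Read counts on genes ranged from 9515004 (Control replicate 2) to 24605689 per library, and 3 counts, the limit below which a value is not read, corresponded to 0.122 to 0.315 CPM, where CPM is the share of a library's counts scaled to a fixed library size. All CPM values here are TMM-normalized, that is, corrected by a trimmed-mean factor per library. Of the mast cell markers, 10 of 10 were above that limit in every group, with sums from 54430 to 83430 CPM in Control, 58390 to 65360 in IgE+BSA and 70300 to 81500 in IgE+BSA+Luteolin, and of the defining genes Kit lay between 1749 and 2481, Fcer1a between 4367 and 6879 and Cpa3 between 23040 and 33660 CPM over the 9 libraries. The T cell gene Cd3e had 0 counts throughout. The Control libraries were not alike: the chi-square per degree of freedom between their counts was 75.4 and 120.5 for Control replicate 1 against replicates 2 and 3, 5.81 between replicates 2 and 3, and 3.82 to 13.25 within the other groups. All 5 neutrophil markers summed to 189 CPM in Control replicate 1, 6.97 and 5.65 CPM in Control replicates 2 and 3, 125 to 136 CPM in IgE+BSA and 146 to 172 CPM in IgE+BSA+Luteolin. The same split held for 1 of the 3 basophil markers, the protease Mcpt8 (432 CPM in Control replicate 1, 18.7 to 21.8 in replicates 2 and 3, 292 to 368 in the 6 treated libraries), and for 2 of the 3 eosinophil markers, the granule genes Prg2 (31.5, at most 0.0969, and 13.6 to 22.98 CPM) and Epx (1.70, 0, and 0.918 to 2.28 CPM). Of the 10 mast cell markers, 4 were lower in Control replicates 2 and 3 than in all 7 other libraries (Tpsb2, Cma1, Mcpt4 and Hdc), 2 were higher there (Kit and Gata2) and 4 were neither. Among them the protease gene Mcpt4 was at 1752 CPM in Control replicate 1, 197 to 201.5 in replicates 2 and 3 and 1027 to 1574 in the treated libraries, Cma1 at 10120, 3555 to 4049 and 6390 to 9464, and Kit at 1749, 2306 to 2481 and 1963 to 2166. Of 5 macrophage markers, 2 split likewise, Csf1r (9.49, 4.62 to 4.75, and 7.73 to 10.3 CPM) and Cd14 (17.6, 6.84 to 7.85, and 13.7 to 20.9 CPM). By the neutrophil markers and the others that split in the same direction, Control replicate 1 lay near the treated libraries and Control replicates 2 and 3 lay apart. Beside Kit and Gata2, other markers went differently: the basophil gene Cd200r3 was lower in Control replicate 1 and the treated libraries (687.5 and 616 to 753 CPM) than in Control replicates 2 and 3 (1023 to 1045), Prss34 was at 759, 611 to 650.5 and 513 to 661 CPM, and the eosinophil gene Siglecf was at 4.14, 10.1 to 12.9 and 3.82 to 10.9 CPM. The sum of the macrophage list, most of it Adgre1, was 355 to 364.5 CPM in Control and 386 to 421 in the treated libraries. The part of this difference in the results against Control was not tested, and the comparisons of the 10 genes with Control are given with all 3 Control libraries, with replicates 2 and 3, and with replicate 1 alone. In the last case the lone library is assumed to vary like the treated ones.

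Together the 10 genes took 0.194 to 0.197% of all counts in Control, 0.332 to 0.361% in IgE+BSA and 0.0889 to 0.0970% in IgE+BSA+Luteolin. The 3 ranges did not overlap. Klf6, Ier2 and Ier3 held most of these counts. In Control replicates 1, 2 and 3, Ier2 was at 452, 144 and 182 CPM and Klf6 at 347, 678 and 659 CPM. These opposite differences offset each other in the sum, so its narrow range in Control does not mean that the single genes were alike. All 10 passed the filter on low counts (a median above 1 CPM over the 9 libraries), which left 11560 genes. In bulk RNA, fewer cells that express a gene and less RNA per cell cannot be told apart.

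**Figure D1:**
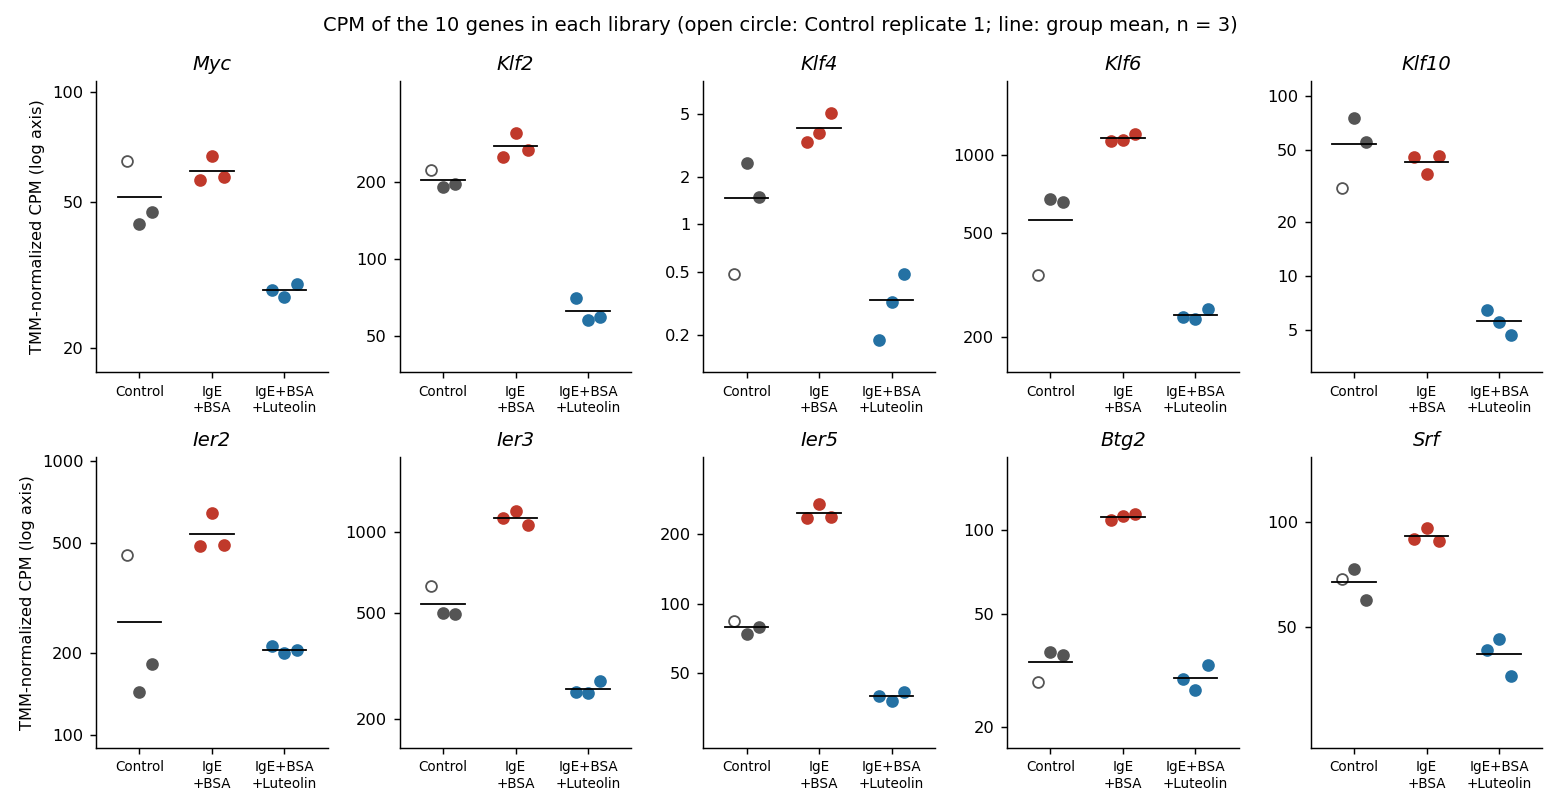
CPM of each gene in each library on a log axis that differs between panels, with Control in grey, IgE+BSA in red and IgE+BSA+Luteolin in blue. Each circle is 1 library, the open circle is Control replicate 1, and each line is the mean of 3 libraries. In every panel the 3 IgE+BSA+Luteolin libraries lie below the 3 IgE+BSA libraries, while Control replicate 1 differs from the nearer of the other Control libraries by 3.05-fold for Klf4, 2.49-fold for Ier2, 1.90-fold for Klf6, 1.80-fold for Klf10 and 1.38-fold for Myc, and by 1.26-fold or less for the other 5.

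SRF is the most upstream factor of the group. Srf stood at 68.6, 73.1 and 59.6 CPM in Control replicates 1, 2 and 3, at 89.1, 95.8 and 88.0 CPM in the IgE+BSA libraries, and at 42.9, 46.2 and 36.2 CPM in the IgE+BSA+Luteolin libraries. No library of one group reached into the range of another, with IgE+BSA highest and luteolin lowest. Against IgE+BSA, luteolin-treated cells were lower, with a log2 fold change of -1.12 (SE 0.0809, 2.17-fold, adjusted p = 7.96e-09, edgeR quasi-likelihood test). Against Control they were lower too, at -0.69 (SE 0.137, adjusted p = 0.0473), and this value was -0.66 and -0.71 with Control replicates 2 and 3 or replicate 1 alone. That call was lost when Control replicate 2 or 3 or any luteolin library was left out (adjusted p from 0.102 to 0.225). With any 1 library left out the fold change lay between -0.766 and -0.59. The difference between IgE+BSA and Control, 0.44 (95% CI 0.17 to 0.71), did not pass the test with all 3 Control libraries (adjusted p = 0.0938). It passed against Control replicates 2 and 3 (0.42, adjusted p = 0.00177) and against replicate 1 alone (0.39, adjusted p = 0.00493), and with DESeq2 (adjusted p = 0.0259) and all 9 libraries in 1 fit (adjusted p = 0.0415).

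Myc was present at 64.7, 43.6 and 46.8 CPM in Control, 57.3, 66.8 and 58.3 CPM in IgE+BSA, and 28.7, 27.4 and 29.9 CPM in IgE+BSA+Luteolin. Control replicate 1 fell among the IgE+BSA libraries, so Control and IgE+BSA overlapped, while the luteolin libraries were below both. The log2 fold change between IgE+BSA and Control was 0.23 (95% CI -0.18 to 0.64, adjusted p = 0.523). It was 0.37 against Control replicates 2 and 3 (adjusted p = 0.00384) and -0.11 against replicate 1 alone (adjusted p = 0.429), so even its sign rested on the Control libraries used. With luteolin Myc was 2.12-fold lower than in IgE+BSA (log2 -1.08, SE 0.0791, adjusted p = 8.98e-09), the smallest change of the 10, and 1.81-fold lower than in Control (log2 -0.86, SE 0.163, adjusted p = 0.0419). Against Control replicates 2 and 3 this value was -0.67 and against replicate 1 alone -1.18. The call with all 3 was lost without Control replicate 2 or 3 or any luteolin library (adjusted p from 0.0879 to 0.233).

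Among the KLF genes, Klf6, a factor known in macrophages as a partner of inflammatory transcription, was the most abundant. Klf6 measured 347, 678 and 659 CPM in Control, 1139.7, 1149.9 and 1209.5 CPM in IgE+BSA, and 239, 234 and 256 CPM in IgE+BSA+Luteolin. The groups did not overlap, but Control replicate 1 lay between the luteolin libraries and the other Controls. Luteolin-treated cells were 4.79-fold lower than IgE+BSA (log2 -2.26, SE 0.0571, adjusted p = 8.27e-15). Neither comparison with Control passed the test, at a log2 fold change of 1.06 for IgE+BSA (95% CI 0.50 to 1.62, adjusted p = 0.0662) and -1.21 for IgE+BSA+Luteolin (95% CI -1.80 to -0.63, adjusted p = 0.0509). Both passed against Control replicates 2 and 3, at 0.75 and -1.47, and against replicate 1 alone they were at 1.73 and -0.51. IgE+BSA against Control also passed with DESeq2 (adjusted p = 0.00232) and with all 9 libraries in 1 fit (adjusted p = 0.0143). It passed in edgeR without a filter on low counts too (adjusted p = 9e-04), and not with the other scalings and filters.

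Klf2, which restrains inflammatory gene expression in endothelial and myeloid cells, was at 223, 191 and 196 CPM in Control. It reached 250.4, 310 and 267 CPM in IgE+BSA and 70.0, 57.6 and 59.0 CPM in IgE+BSA+Luteolin. IgE+BSA and Control did not overlap but lay close together, with a log2 fold change of 0.44 (95% CI 0.14 to 0.74) that did not pass (adjusted p = 0.119). This difference passed with DESeq2 (adjusted p = 0.0425) and with all 9 libraries in 1 fit (adjusted p = 0.0438), but not with the other scalings and filters. It was 0.46 against Control replicates 2 and 3 (adjusted p = 0.000659) and 0.29 against replicate 1 alone (adjusted p = 0.0518). Luteolin-treated cells were 4.43-fold below IgE+BSA (log2 -2.15, SE 0.0857, adjusted p = 2.16e-12) and 3.28-fold below Control (log2 -1.71, SE 0.123, adjusted p = 0.00383). The last value was -1.65 against Control replicates 2 and 3 and -1.84 against replicate 1 alone, and its call was lost without luteolin replicate 2 (adjusted p = 0.0667).

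Klf10, a repressor first described as induced by TGF-β, had the opposite order of Control and IgE+BSA. Its CPM was 30.8, 76.0 and 55.6 in Control, 46.1, 36.9 and 46.7 in IgE+BSA, and 6.52, 5.59 and 4.69 in IgE+BSA+Luteolin. Control spanned a 2.47-fold range and enclosed all IgE+BSA libraries. IgE+BSA differed from Control by -0.32 (95% CI -1.004 to 0.37, adjusted p = 0.603). This value was -0.64 against Control replicates 2 and 3 (adjusted p = 0.00108) and 0.47 against replicate 1 alone (adjusted p = 0.0154), each past the threshold with opposite signs. Luteolin-treated cells were 7.69-fold below IgE+BSA (log2 -2.94, SE 0.126, adjusted p = 5.2e-12) and 9.66-fold below Control (log2 -3.27, SE 0.345, adjusted p = 0.00862). The last value was -3.54 against Control replicates 2 and 3 and -2.46 against replicate 1 alone, and its call was lost without any 1 luteolin library (adjusted p from 0.0616 to 0.0821). Klf10 was the only one of the 10 whose mean in IgE+BSA was below its mean in Control.

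Klf4, one of the reprogramming factors and a regulator of monocyte differentiation, was the least abundant. It was counted 10, 25 and 36 times in Control (0.487, 2.42 and 1.48 CPM), 73, 76 and 103 times in IgE+BSA (3.30, 3.80 and 5.02 CPM), and 4, 8 and 10 times in IgE+BSA+Luteolin (0.186, 0.324 and 0.483 CPM). The luteolin values lie just above the limit of 3 counts, and Control replicate 1 matched the highest of them. The log2 fold change of -3.59 between IgE+BSA+Luteolin and IgE+BSA was the largest of the 10 and also the least precise (SE 0.367, 95% CI -4.37 to -2.81, adjusted p = 7.87e-07). Differences from Control did not pass the test, at 1.54 for IgE+BSA (95% CI 0.37 to 2.71, adjusted p = 0.148) and -2.07 for IgE+BSA+Luteolin (95% CI -3.61 to -0.52, adjusted p = 0.135). The first passed with both Control subsets, at 1.08 against replicates 2 and 3 (adjusted p = 0.0131) and 3.02 against replicate 1 alone (adjusted p = 0.000532). The second passed against replicates 2 and 3 (-2.48, adjusted p = 0.000396) and not against replicate 1 alone (-0.55, adjusted p = 0.671).

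Of the IER genes, Ier3, a regulator of survival and of ERK signalling also known as IEX-1, was at 629, 498 and 493 CPM in Control. It rose to 1127, 1191 and 1059.9 CPM in IgE+BSA and stood at 253, 250.8 and 277 CPM in IgE+BSA+Luteolin. The 3 groups were fully separate. The increase over Control was 2.08-fold (log2 1.06, SE 0.138, adjusted p = 0.00934), and the value with luteolin was 4.31-fold below IgE+BSA (log2 -2.11, SE 0.0621, adjusted p = 4.4e-14) and 2.08-fold below Control (log2 -1.05, SE 0.126, adjusted p = 0.0115). With Control replicates 2 and 3 the increase was 1.14, and with replicate 1 alone it was 0.82, both past the threshold. Leaving out any single library other than Control replicate 1 left the increase at 0.992 to 1.102 and took its adjusted p to between 0.0511 and 0.0781. The decrease against Control was -0.94 and -1.27 with these Control subsets, and its call was lost without any 1 luteolin library (adjusted p from 0.0718 to 0.111).

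Ier5 activates the heat shock factor HSF1. Its values were 84.0, 73.7 and 79.1 CPM in Control, 236, 270.4 and 238 CPM in IgE+BSA, and 39.8, 38.0 and 41.5 CPM in IgE+BSA+Luteolin. All 3 Control libraries lay in a narrow range between the other groups. Ier5 rose 3.14-fold in IgE+BSA (log2 1.65, SE 0.116, adjusted p = 0.000633), between 1.54 and 1.65 whichever Control libraries were used. With luteolin it was 6.23-fold below IgE+BSA (log2 -2.64, SE 0.0693, adjusted p = 1.22e-14) and 1.99-fold below Control (log2 -0.99, SE 0.103, adjusted p = 0.00862). The last value was -0.95 against Control replicates 2 and 3 and -1.08 against replicate 1 alone, and its call was lost without any 1 luteolin library (adjusted p from 0.0616 to 0.0942). With any 1 library left out it lay between -1.035 and -0.954.

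Ier2, a nuclear DNA-binding protein, showed the widest spread in Control of the abundant genes, at 452, 144 and 182 CPM. The IgE+BSA libraries held 490.4, 647 and 492 CPM and the IgE+BSA+Luteolin libraries 212, 199 and 205 CPM. Control replicate 1 came close to IgE+BSA, and replicates 2 and 3 were below every luteolin library. The decrease with luteolin against IgE+BSA was 2.64-fold (log2 -1.40, SE 0.0871, adjusted p = 9.43e-10). Neither comparison with Control passed the test, at 1.06 for IgE+BSA (95% CI 0.08 to 2.04, adjusted p = 0.213) and -0.34 for IgE+BSA+Luteolin (95% CI -1.25 to 0.57, adjusted p = 0.598). Against Control replicates 2 and 3 the values were 1.68 (adjusted p = 1.69e-07) and 0.32 (adjusted p = 0.00402), and against replicate 1 alone 0.25 (adjusted p = 0.167) and -1.14 (adjusted p = 3.22e-08). The sign of the difference between IgE+BSA+Luteolin and Control therefore turned with the Control libraries. That difference holds IgE, antigen and luteolin together.

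Btg2 was at 28.8, 36.7 and 35.9 CPM in Control, 108, 111 and 113 CPM in IgE+BSA, and 29.4, 26.9 and 33.2 CPM in IgE+BSA+Luteolin. The luteolin and Control libraries overlapped, and IgE+BSA stood far above both. Stimulated cells held 3.29-fold more than Control (log2 1.72, SE 0.121, adjusted p = 0.000633), the largest fold of the 10 with all 3 Control libraries. It was 1.57 against Control replicates 2 and 3, where Ier2 (1.68) and Ier5 (1.65) lay above it, and 1.93 against replicate 1 alone, where Klf4 (3.02) did. Luteolin-treated cells were 3.72-fold below IgE+BSA (log2 -1.90, SE 0.0748, adjusted p = 1.85e-12). They differed from Control by -0.18 (95% CI -0.52 to 0.16, adjusted p = 0.462), an interval that allows a decrease of up to 0.52 on the log2 scale. The value was -0.29 (adjusted p = 0.0194) against Control replicates 2 and 3 and 0.05 (adjusted p = 0.822) against replicate 1 alone.

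**Figure D2:**
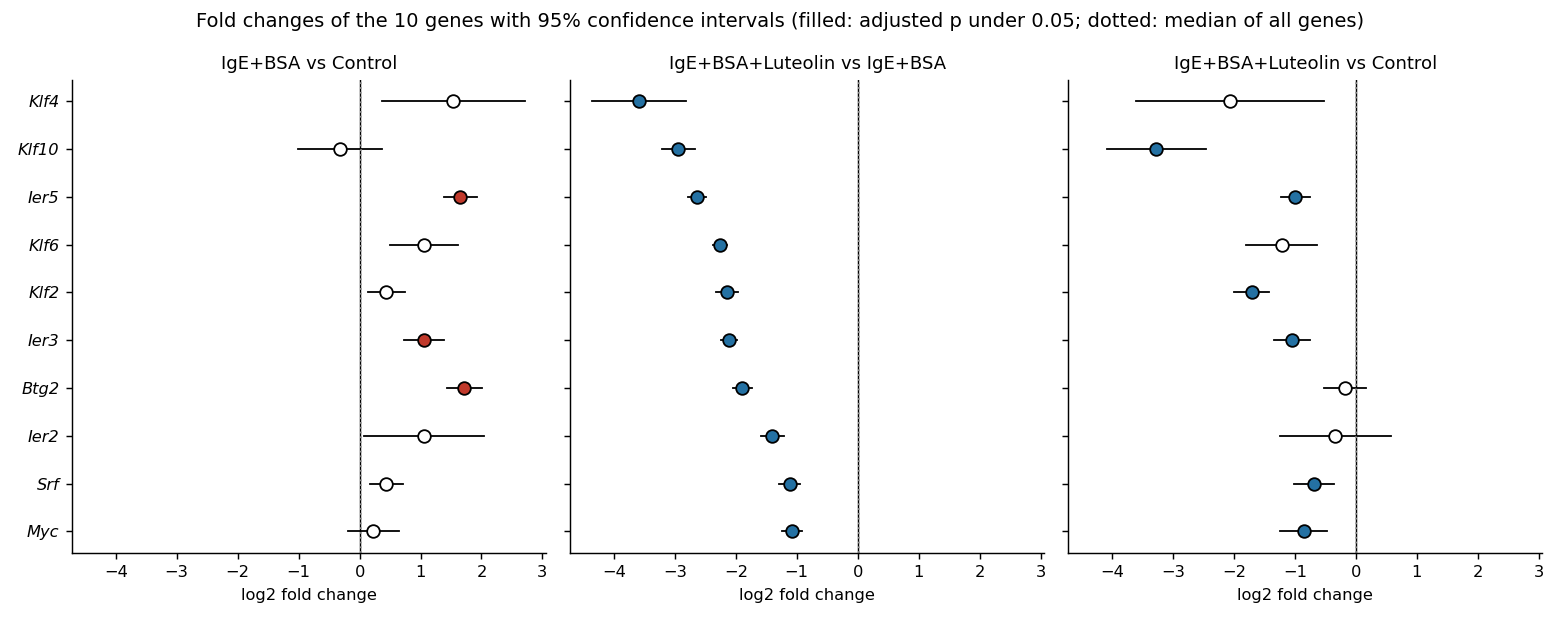
Log2 fold change of each gene in the 3 comparisons, with lines for the 95% confidence interval of the edgeR fit, filled circles where the adjusted p was under 0.05 (red higher, blue lower) and a dotted line at the median of all genes tested. All 10 intervals of IgE+BSA+Luteolin against IgE+BSA lie below 0, while in the comparisons with Control 3 circles are filled for IgE+BSA and 6 for IgE+BSA+Luteolin.

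Across the group, the question of stimulation gave 3 of 10 genes higher and 0 lower in IgE+BSA than in Control, where 2.25% of all genes tested were called higher and 1.02% lower. At an unadjusted p under 0.05 it gave 8 of 10 higher and 0 lower (10.8% and 9.67% of all genes), and the libraries of 8 of the 10 did not overlap in the higher direction (16.6% of all genes; 12.1% in the lower direction, which held none of the 10). The median log2 fold change was 1.06, against 0.02 over all genes tested. With scaling by library size alone, the median of all genes moved to -0.15 and 291 of 464 called genes were lower, in place of 118 of 378, and 3 of the 10 were called, all higher. With Control replicates 2 and 3, 9 of the 10 were called higher and Klf10 lower, but 22.6% of all genes were then called higher and 22.4% lower. With Control replicate 1 alone, 7 were called higher and 0 lower, against 23.1% and 19.2% of all genes, and Myc, Klf2 and Ier2 did not pass. Ier3, Ier5 and Btg2 were called in each of these 3 settings, but with any single library other than Control replicate 1 left out Ier3 was not (adjusted p from 0.0511 to 0.0781) and 2 of the 10 stayed called.

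The effect of luteolin on stimulated cells did not involve the Control libraries. All 10 genes were called lower and all 10 had libraries that did not overlap, against 21.9% of genes tested called lower and 18.1% called higher, and 26.2% and 24.1% whose libraries did not overlap in those directions. The median of the 10 was -2.13 against 0.02 over all genes. Their fold changes stood in the lowest 0.156% (Klf4) to 4.64% (Myc) of all genes tested. This comparison shares the IgE+BSA libraries with the previous one. With scaling by library size alone, the median of all genes moved to 0.13 and 1767 of 5624 called genes were lower, in place of 2527 of 4624, and the 10 genes were called lower there too. Of 10 mast cell markers, 6 were higher and 2 lower in the same comparison. Markers of other cell types changed too, with 3 of 3 basophil and 2 of 5 neutrophil markers higher, 1 of 5 macrophage markers lower (Cd14, -0.44) and 1 of 3 eosinophil markers lower (Siglecf, -1.07). The median over the mast cell list was 0.31. The part of the marker differences in this result was not tested.

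Whether luteolin brought the genes to the level of untreated cells was asked by IgE+BSA+Luteolin against Control. Lower values were called for 6 of 10 genes and higher values for 0, against 2.75% and 0.285% of genes tested, and the libraries of 8 of the 10 did not overlap in the lower direction (14.9% of all genes, and 13.6% in the higher direction). Among these 8, Klf4 was barely separate, with 10 counts each in Control replicate 1 (0.487 CPM) and luteolin replicate 3 (0.483 CPM). The median was -1.02, against 0.01 over all genes. The calls were not stable to single libraries: of the 10, 1, 0 and 1 were called without luteolin replicate 1, 2 and 3, where 5, 2 and 25 genes were called in all. With any 1 library left out, the fold changes of the 6 called genes kept their sign. They ran from -0.959 to -0.672 for Myc, -1.806 to -1.647 for Klf2 and -3.545 to -2.948 for Klf10. The ranges were -1.113 to -0.935 for Ier3, -1.035 to -0.954 for Ier5 and -0.766 to -0.59 for Srf. With Control replicates 2 and 3, 9 were lower and Ier2 higher (30.1% and 29.9% of all genes). With Control replicate 1 alone, 8 were lower and 0 higher (9.55% and 11.6% of all genes), and Klf4 and Btg2 did not pass. Myc, Klf2, Klf10, Ier3, Ier5 and Srf were called lower in these 3 settings.

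**Figure D3:**
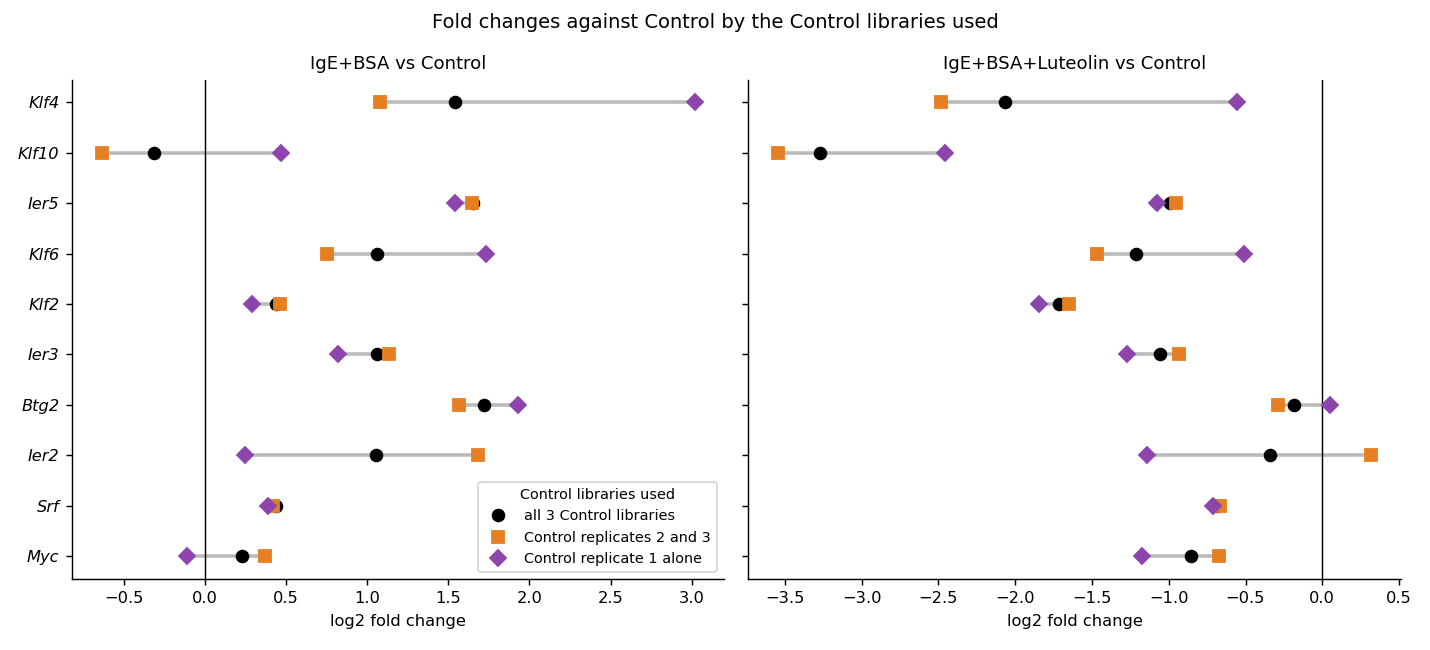
Log2 fold change of each gene against Control, in IgE+BSA (left) and IgE+BSA+Luteolin (right), with all 3 Control libraries (circles), Control replicates 2 and 3 (squares) or Control replicate 1 alone (diamonds), and a grey line over the range. Ier5, Ier3, Btg2, Srf and Klf2 lie in short ranges, while Ier2 runs from 0.25 to 1.68 on the left and from -1.14 to 0.32 on the right, and Klf10 and Myc cross 0 on the left and Btg2, like Ier2, on the right.

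Levels can be compared between genes per kilobase of exon. On that scale Ier3 was the most abundant in each group, with 477 ± 68.4 CPM per kb in Control, 995 ± 57.8 in IgE+BSA and 230.4 ± 13.0 in IgE+BSA+Luteolin (SD, n = 3). Klf4 was the least abundant, with 0.480 ± 0.317, 1.33 ± 0.291 and 0.109 ± 0.0487 CPM per kb. In IgE+BSA the order was Ier3, Ier2, Klf6, Klf2, Ier5, Btg2, Srf, Myc, Klf10 and Klf4, and no neighbours in it overlapped. In Control, Ier2, Klf6 and Klf2 followed Ier3 and overlapped from one to the next, as did Ier5, Srf, Myc, Klf10 and Btg2. With luteolin the order of the first 4 was that of IgE+BSA. Srf, Ier5, Btg2 and Myc came next, at 14.4 CPM per kb and below, and overlapped. Btg2 thus took place 9 in Control, 6 in IgE+BSA and 7 with luteolin.

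Within groups, the coefficient of variation of CPM in IgE+BSA ran from 2.32% (Btg2) to 21.9% (Klf4), and in IgE+BSA+Luteolin from 3.24% (Ier2) to 44.9% (Klf4). In Control it reached 66.1% for Klf4, 64.8% for Ier2, 41.9% for Klf10 and 33.2% for Klf6, and was 6.51% for Ier5. Over the 9 libraries, the correlation of each gene's log2 CPM with the mean profile of the others of the 10 ran from 0.70 (Ier2) and 0.78 (Klf10) to 0.99 (Ier3). The 9 libraries form 3 groups, each gene was left out of the mean it was compared with, and these values are a description. The genes outside the 10 most similar to the mean profile of all 10 were Jund (r = 0.997 over 9 libraries), an AP-1 subunit, H3f3b (0.997), which encodes histone H3.3, Trim8 (0.994), Ppp1r10 (0.993) and Tnfaip8 (0.992). Jund averaged 215 CPM in Control, 377 in IgE+BSA and 124 in IgE+BSA+Luteolin.

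Of the rest of the MYC/MAX network, 10 of 12 genes were tested. With luteolin against IgE+BSA 5 were lower and 2 higher, with a median of -0.17. For this and the other related lists, the shares of all genes tested called in that comparison were 21.9% lower and 18.1% higher. In IgE+BSA against Control they were 1.02% lower and 2.25% higher, and 22.4% and 22.6% with Control replicates 2 and 3. Mycn, a MYC paralogue, was at 17.9 ± 2.40 CPM in Control, 30.0 ± 1.08 in IgE+BSA and 7.93 ± 1.39 in IgE+BSA+Luteolin (SD, n = 3), higher in IgE+BSA than in Control (log2 0.74, SE 0.133, adjusted p = 0.033) and lower with luteolin (log2 -1.92, SE 0.118, adjusted p = 7.76e-10). Its rise was 0.60 against Control replicates 2 and 3 and 0.89 against replicate 1 alone. It was the 1 gene of the list called in that comparison with all 3 Control libraries, and with these subsets 2 were higher and 5 lower, and 4 higher and 1 lower. The MAX-binding repressors Mnt (log2 -1.21, SE 0.0869, adjusted p = 7.42e-09) and Mxd1 (log2 -0.64, SE 0.0755, adjusted p = 4.58e-06) were lower too. Max itself, the partner of all of them, was higher by 0.20 (SE 0.0629, adjusted p = 0.0168), and the list showed no common direction.

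Canonical MYC targets are mostly genes of ribosome production and metabolism. All 28 were tested, and with luteolin against IgE+BSA 5 were higher, 4 lower and 19 not called, with a median of 0.03. Of all genes tested, 18.1% were called higher and 21.9% lower there, so these counts do not set the list apart. Odc1, the first enzyme of polyamine synthesis, was higher in IgE+BSA than in Control (134 ± 10.4 and 307.5 ± 12.1 CPM, log2 1.199, SE 0.102, adjusted p = 0.00143) and lower with luteolin (117 ± 10.0 CPM, log2 -1.39, SE 0.0648, adjusted p = 1.7e-11). Ppan was lower (log2 -0.47, SE 0.0852, adjusted p = 0.000428) and Nme1 higher with luteolin (log2 0.41, SE 0.0702, adjusted p = 0.00025). Against Control, 2 targets were higher in IgE+BSA (Odc1 and the nucleolar helicase Ddx21, log2 0.64, SE 0.103, adjusted p = 0.0228) and none was called with luteolin. Odc1 was at 1.09 and 1.32 and Ddx21 at 0.65 and 0.51 with the Control subsets. With Control replicates 2 and 3 the counts became 26 higher of 28 in IgE+BSA, where 22.6% of all genes were called higher and 22.4% lower. With luteolin against these Controls they became 25 higher and 1 lower, where 29.9% of all genes were called higher and 30.1% lower. The medians were 0.665 in IgE+BSA and 0.71 with luteolin, and -0.184 and -0.12 with replicate 1 alone. The sign of the list's median against Control thus turned with the Control libraries.

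Other KLF genes were tested in 8 of 13 cases, and 6 were lower and 0 higher with luteolin against IgE+BSA, with a median of -1.60. Klf9, which responds to glucocorticoids, fell from 111 ± 7.26 CPM to 16.1 ± 2.37 (log2 -2.79, SE 0.0909, adjusted p = 1.62e-13), Klf11, the closest relative of Klf10, from 21.4 ± 1.30 to 3.90 ± 0.400 (log2 -2.45, SE 0.129, adjusted p = 9.34e-11), and Klf5 from 5.52 ± 0.796 to 1.18 ± 0.319 (log2 -2.21, SE 0.260, adjusted p = 4.14e-06). With all 3 Control libraries Klf5 was also the 1 gene of this list called in IgE+BSA against Control (log2 1.70, SE 0.311, adjusted p = 0.0351), at 1.51 and 1.85 with the Control subsets. The list counts were 3 higher and 1 lower against Control replicates 2 and 3, and 5 higher and 0 lower against replicate 1 alone. All 4 of the other BTG/TOB genes tested of 5 were lower with luteolin, with a median of -1.14. Tob2 repeated the pattern of Btg2, with 76.9 ± 2.43 CPM in Control, 155.7 ± 8.49 in IgE+BSA and 74.5 ± 3.89 with luteolin, and rose by 1.02 (SE 0.0983, adjusted p = 0.00284) and fell by 1.06 (adjusted p = 4.94e-10). The rise was 0.95 and 1.05 with the Control subsets, where 2 and 3 of the 4 were called higher, in place of 1. Btg1 and Tob1 were lower with luteolin, at -1.22 (SE 0.0523, adjusted p = 5.46e-12) and -1.29 (SE 0.186, adjusted p = 4.15e-05). Of the 2 other genes with an IER name, Ier3ip1 was tested, an unrelated membrane protein that binds IER3, and it was higher with luteolin by 0.47 (SE 0.0764, adjusted p = 0.000154).

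Of the 6 cofactors of SRF, 5 were tested. Mrtfb (log2 -0.45, SE 0.116, adjusted p = 0.00597) and Elk4 (log2 -0.42, SE 0.0753, adjusted p = 0.000379) were lower with luteolin against IgE+BSA, and 3 were not called. Of all genes tested, 21.9% were called lower there. In IgE+BSA against Control none of the 5 was called with all 3 Control libraries. Against replicates 2 and 3, 1 was higher and 3 lower, where 22.6% of all genes were called higher and 22.4% lower. The median of the 5 was -0.42 against these libraries and 0.47 against replicate 1 alone, so its sign turned with the Control libraries. Of the cytoskeletal SRF targets, 15 of 17 were tested, with 11 lower and 0 higher and a median of -0.42. The actin gene Actg1 was at 779 ± 113 CPM in Control, 1495 ± 46.0 in IgE+BSA and 552 ± 22.5 with luteolin, with log2 fold changes of 0.94 (SE 0.137, adjusted p = 0.0156) and -1.43 (SE 0.0542, adjusted p = 1.02e-12). Fhl2, which encodes a LIM protein, rose by 0.93 (SE 0.168, adjusted p = 0.0343) and was lower with luteolin, at -1.63 (SE 0.146, adjusted p = 1.37e-07). With Control replicates 2 and 3 or replicate 1 alone the rises were 1.004 and 0.72 for Actg1 and 0.98 and 0.78 for Fhl2. With all 3 these were the 2 genes of the list called in IgE+BSA against Control, and with the Control subsets 8 were higher and 3 lower, and 7 higher and 4 lower.

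The other immediate early genes, among them the FOS, JUN, EGR and NR4A families, were tested in 28 of 30 cases. With stimulation 20 were higher and 0 lower, at a median of 2.09 (28 higher against Control replicates 2 and 3 and 25 against replicate 1 alone), and with luteolin against IgE+BSA 26 were lower and 1, Sik1, higher, at a median of -2.27. The largest rises were those of Nr4a3 (log2 4.48, SE 0.205, adjusted p = 0.000173), Egr2 (3.98, SE 0.146, adjusted p = 4.88e-05) and Ccn1 (3.92, SE 0.617, adjusted p = 0.0203), which stayed called with both Control subsets (Nr4a3 4.27 and 4.803, Egr2 4.05 and 3.75, Ccn1 5.41 and 2.84), and among the largest decreases were those of Egr2 (-4.62, SE 0.0706), Atf3 (-4.33, SE 0.0744) and Egr3 (-4.075, SE 0.175). Dusp2 was called lower too (adjusted p = 1.57e-06), with 72, 58 and 50 counts in the IgE+BSA libraries and 1, 6 and 4 with luteolin, but 1 of the luteolin libraries lies under the limit of 3 counts, so no fold is given for it. The 10 genes thus had a smaller median change than this list in IgE+BSA against Control (1.06 against 2.09) and a similar one with luteolin (-2.13 against -2.27), a difference that was not tested. Against Control, IgE+BSA+Luteolin left 5 of the 28 higher and 4 lower, with a median of 0.12, where the 10 genes had a median of -1.02. Against Control replicates 2 and 3 these were 13 higher and 10 lower with a median of 0.14 (-0.94 for the 10 genes), and against replicate 1 alone 9 higher and 16 lower with a median of -0.58 (-1.11 for the 10 genes), so the sign of the list's median turned with the Control libraries.

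**Figure D4:**
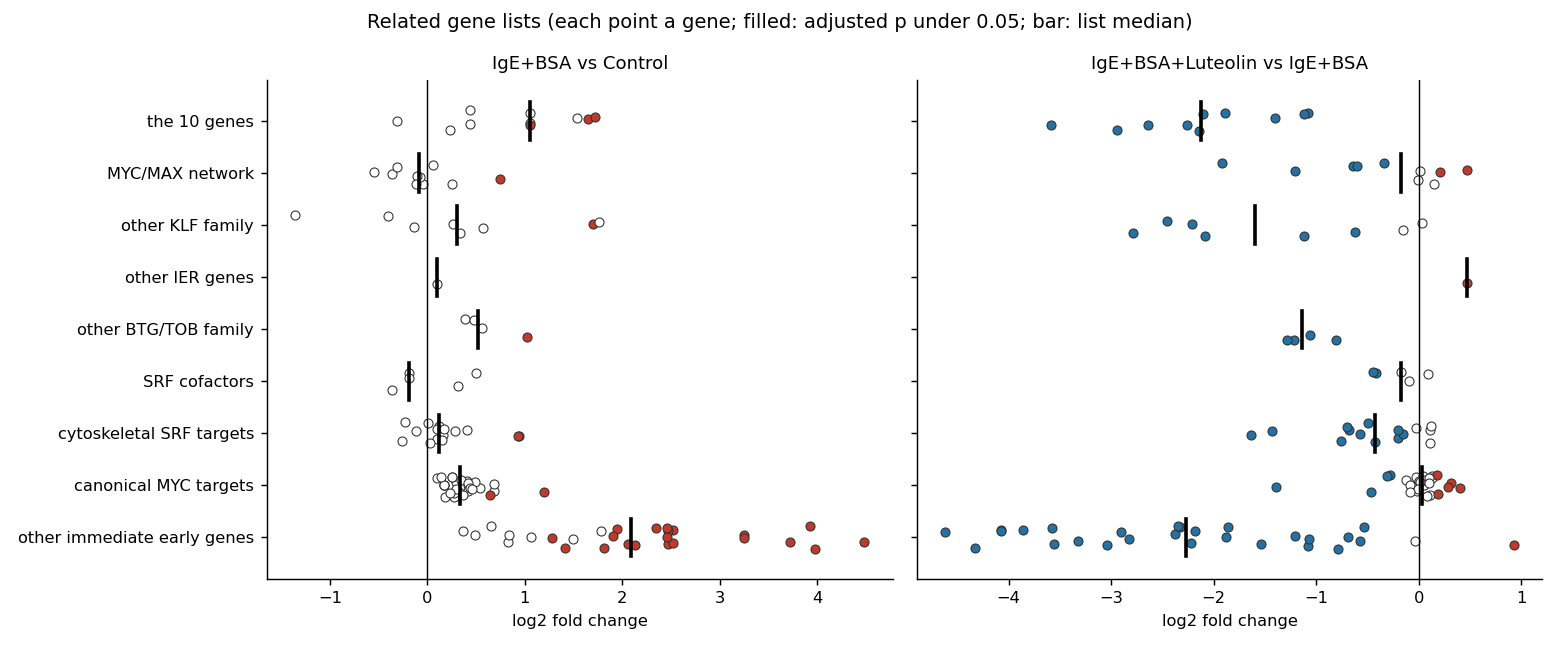
Log2 fold change of each tested gene in the 10 genes and the related lists, for IgE+BSA against Control (left) and IgE+BSA+Luteolin against IgE+BSA (right). Each point is a gene, filled where the adjusted p was under 0.05 (red higher, blue lower), and each bar is the list median. With luteolin the 10 genes, the other KLF and BTG/TOB genes and the other immediate early genes lie mostly below 0, and the canonical MYC targets lie around 0.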

How the data were processed

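The authors sequenced stranded mRNA libraries of 9 BMMC samples in 3 groups. Reads were cleaned with HTStream and mapped with STAR 2.7.0f (submitters' processing notes) against mm10. The deposited table holds the unnormalized read count of every Ensembl gene in each library, in columns whose headers name htseq_count. The annotation release, strand setting and treatment of multiply mapped reads are not given in the sources used here. Groups and replicate numbers come from the sample labels.

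Counts were tested in R 4.3.3 with edgeR 4.0.16 (quasi-likelihood test, TMM factors, two-sided, Benjamini-Hochberg over all 11560 genes with a median CPM above 1, threshold 0.05), on the 6 libraries of each comparison. Tested on simulated data, the method recovered 49.5% (IgE+BSA vs Control), 89% (IgE+BSA+Luteolin vs IgE+BSA) and 51.5% (IgE+BSA+Luteolin vs Control) of 200 genes changed 2-fold among 11560, and 9.17%, 9.64% and 4.63% of its calls were false. The simulation drew each gene on its own, without a shared difference of Control replicate 1 from replicates 2 and 3. Its shares therefore need not hold for the real comparisons with Control. Intervals cover counting and replicate spread as fitted, while the limit of 3 counts is a fixed setting that was not derived from a fit. Neither covers PCR duplicates, since the reads carry no molecular identifiers. Alternatives were DESeq2 1.42.0, limma 3.58.1 with a trend, other scalings and filters, all 9 libraries in 1 fit, a replicate block, a gene length correction and leaving out each library. The use of Control replicate 1 alone was added after the marker genes of the Control libraries had been seen. Of 47643 gene IDs, 47224 matched GENCODE M21 (GRCm38). Promoter sequences are from RefSeq (GRCm38.p6).

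The 10 genes, the related lists and the markers were chosen with earlier results of these data known. Named are all 10 genes, up to 3 genes of each related list with the largest called change in IgE+BSA vs Control and in IgE+BSA+Luteolin vs IgE+BSA, the 5 genes with the highest correlation with the mean profile, and Fcer1a, Kit and Cpa3. Max, Sik1, Egr3 and the other single markers were named after their values were seen. Duplicate libraries were looked for within each group by chi-square tests of the counts, and all pairs within a group differed by more than sampling noise (at least 3.82 per degree of freedom). Pairs from different groups were not examined.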

Additional observations from a re-analysis of the deposited data

How the results depend on the processing

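Between IgE+BSA+Luteolin and IgE+BSA, all 170 values of the 10 genes (10 genes, 17 alternatives) kept their direction and their call, with a largest adjusted p of 0.0375. The genes called there were 4624 in the report and 1093 with all 9 libraries in 1 fit. The other alternatives gave further counts, not all of which are listed. In IgE+BSA vs Control, 155 of 180 values stayed on their side of the threshold, 18 became calls, 5 lost theirs and 2 changed sign. The genes called there, 378 in the report, were 1227 with DESeq2, 604 without a filter, 1105 with all 9 libraries, 144 with the replicate block, 217 with the replicate block and length correction, and 4892 with Control replicate 1 alone. Leaving out 1 library gave 90 to 5207, the highest without Control replicate 1. Of the 10 genes, 3 were called in the report, 6 with DESeq2, 5 without a filter, 6 with all 9 libraries, 7 with Control replicate 1 alone and 2 to 10 with 1 library left out, 2 in each case but that of Control replicate 1. With Control replicate 1 alone Myc was at -0.11 and Klf10 at 0.47. In IgE+BSA+Luteolin vs Control, 143 of 180 values stayed on their side, 13 became calls, 22 lost theirs and 2 changed sign. Genes called, 351 in the report, were 1379 with DESeq2, 793 without a filter, 1251 with all 9 libraries, 212 with the replicate block, 602 with the length correction, 2447 with Control replicate 1 alone, and 2 to 6931 with 1 library left out. The 10 genes then gave 0 to 10 calls. Ier2 ran from -0.62 to 0.32 with 1 library left out, positive without Control replicate 1, and Btg2 was at 0.052 with that library alone. The cause of these changes was not tested.

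Scaling by library size alone moved the median of all genes by more than 0.1 and turned the split of calls. In IgE+BSA vs Control 291 of 464 calls were then lower, in place of 118 of 378, and 181 of 380 with upper-quartile factors. The split moved with the test too, with 628 of 1227 calls lower with DESeq2 and 17 of 144 with the replicate block. In IgE+BSA+Luteolin vs IgE+BSA 2019 of 5286 were lower with upper-quartile factors and 1758 of 5281 with the length correction. Correlations of the deviations from the group mean ran from -0.25 to 0.31 between libraries with the same replicate number, and from -0.304 to 0.285 between other pairs. The pairs of replicate 3 were positive in all 3 comparisons (0.24, 0.283 and 0.307), and those of replicates 1 and 2 took both signs. With 3 libraries per group these values cannot show whether the numbers name paired cultures. The replicate block is thus not read as a paired analysis of cultures. Klf4 with luteolin rests on 4 to 10 counts, and which changes can be detected at such counts was not tested.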
